A study of Homo sapiens with 8 samples.

Results

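Chromatin accessibility under pomalidomide alone was compared with that under the solvent DMSO in JJN3 and KMS11, established human multiple myeloma cell lines. The comparison takes 4 of the 8 libraries of the series, 1 per line and treatment, chosen by their line and treatment labels. The DMSO group is the JJN3 and the KMS11 library treated for 48 h with solvent, and the pomalidomide group is the JJN3 and the KMS11 library treated for 48 h with 200 nM pomalidomide. The other 4 libraries are the same lines with 40 nM of the EP300 inhibitor GNE-781, alone or together with 200 nM pomalidomide (the combination). They entered here through the line effect and the estimate of the spread, and as a second pair of libraries with and without pomalidomide. All cells were grown in RPMI medium with 5% serum. The design text also names overexpression of BATF or eGFP, to which no label assigns a library, and all 8 were taken as unmodified lines. The study asks what the drug does to open chromatin, and the measure was the number of ATAC-seq reads in each of 62528 peaks, where a transposase inserts sequencing adapters into DNA that nucleosomes leave accessible.

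Pomalidomide is a thalidomide analog that binds cereblon, the substrate receptor of a cullin-RING ubiquitin ligase built on CUL4 and DDB1. The bound ligase takes up proteins it does not otherwise recognise, above all the zinc finger transcription factors IKZF1 and IKZF3, which are then degraded by the proteasome. These factors bind DNA at a GGGAA core and, in plasma cells and myeloma, help to maintain the program of IRF4 and MYC on which the tumour cells depend. Accessible sites away from promoters are often enhancers, bound by such factors, while promoters of active genes stay open in most cell states.

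The libraries carried open plasma cell promoters, as the labels give: of 7 plasma cell markers 6 had an accessible promoter, with a summed level of 201 to 213 CPM (counts scaled to library size) under DMSO and 187 to 198 under pomalidomide. No promoter peak was assigned to the plasma cell marker TNFRSF17, the T cell markers CD3D, CD3E and CD3G or the myeloid markers CD14, LYZ and CSF1R. A peak assigned to an overlapping transcript would not be counted. PAX5 was the 1 B cell marker of 3 with a promoter peak (1.46 and 10 CPM under DMSO), HBB the 1 erythroid marker of 3 (5.81 to 12.4 CPM under DMSO), and COL1A1 the 1 stromal marker of 3, at 9.51 to 27.7 CPM under DMSO and 10.9 to 52.3 under pomalidomide. Libraries held 1366628 (JJN3 DMSO) to 4586400 (KMS11 pomalidomide) counts in peaks, and the pomalidomide library was the deeper one in both lines, 2.36 times in JJN3 and 1.21 times in KMS11. The median tested peak had 12 and 27 counts in JJN3 under DMSO and pomalidomide, and 34 and 43 in KMS11. A lower value cannot tell fewer cells with an open site from a less open site in each cell.

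A promoter that opened in both lines was that of CD274, which encodes the checkpoint ligand PD-L1. It is shown with 4 others that rose and whose sequence before the RefSeq start lies wholly in the peak. PIPOX encodes pipecolic acid oxidase, CFB complement factor B, PLSCR1 an interferon-inducible phospholipid scramblase and HSD11B1 the enzyme that turns cortisone into cortisol, and CFB, PLSCR1 and HSD11B1 were chosen after their values were seen. Each sequence is the 250 bases before the start in RefSeq's GRCh38.p14 tables, 5′ to 3′ on the strand of the gene, and capitals mark matches to the searched motifs, which run together where they overlap or touch. The motifs are the interferon-stimulated response element (GAAA and GAAA, 2 bases apart), the STAT site TTCNNNGAA, the NF-kB site (GGGA and CC, 4 bases apart), the IKAROS site TGGGAA, the E-box CAGCTG and the KLF/SP site GGGCGG, and those of ETS (CCGGAAG), AP-1 (TGANTCA), RUNX (TGTGGT), MEF2 (CTA and TAG, 4 bases apart) and MAF (TGCTGAC), all on both strands.
CD274, chr9:5450292-5450541, + strand: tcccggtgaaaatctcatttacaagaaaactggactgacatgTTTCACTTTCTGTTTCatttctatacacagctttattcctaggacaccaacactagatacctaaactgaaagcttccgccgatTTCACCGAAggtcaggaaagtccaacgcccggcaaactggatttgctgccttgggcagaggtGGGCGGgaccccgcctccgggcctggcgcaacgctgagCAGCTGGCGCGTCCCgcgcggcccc
CFB, chr6:31945845-31946094, + strand: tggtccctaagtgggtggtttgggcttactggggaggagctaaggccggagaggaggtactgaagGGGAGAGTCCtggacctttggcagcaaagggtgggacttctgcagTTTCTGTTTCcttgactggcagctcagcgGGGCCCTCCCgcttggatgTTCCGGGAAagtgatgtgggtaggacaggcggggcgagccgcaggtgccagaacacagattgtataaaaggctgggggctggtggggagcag
PLSCR1, chr3:146544596-146544845, − strand: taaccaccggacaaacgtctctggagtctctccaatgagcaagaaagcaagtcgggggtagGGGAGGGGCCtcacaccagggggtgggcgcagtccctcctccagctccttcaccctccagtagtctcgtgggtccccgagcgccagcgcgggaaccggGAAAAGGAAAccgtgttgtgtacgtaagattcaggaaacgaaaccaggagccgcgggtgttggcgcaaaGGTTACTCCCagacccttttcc
HSD11B1, chr1:209685929-209686178, + strand: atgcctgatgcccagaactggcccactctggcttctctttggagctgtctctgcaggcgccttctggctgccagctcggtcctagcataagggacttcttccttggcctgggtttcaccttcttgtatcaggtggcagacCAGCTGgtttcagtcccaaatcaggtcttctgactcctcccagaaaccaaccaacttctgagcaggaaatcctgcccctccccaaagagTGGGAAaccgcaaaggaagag
PIPOX, chr17:29042891-29043140, + strand: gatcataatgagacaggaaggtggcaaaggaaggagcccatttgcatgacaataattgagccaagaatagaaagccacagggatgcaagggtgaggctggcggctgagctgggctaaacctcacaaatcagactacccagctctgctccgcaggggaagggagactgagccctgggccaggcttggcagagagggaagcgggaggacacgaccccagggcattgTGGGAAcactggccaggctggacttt
CD274 carries overlapping matches to the interferon-stimulated response element 208 and 202 bp before the start and a STAT site 125 bp before it. CFB has such an element 140 bp before the start, between NF-kB matches, and a STAT site 92 bp before it, and PLSCR1 has the element 91 bp before its start. HSD11B1 and PIPOX have neither, and each has an IKAROS match close to the start, at 21 and 26 bp. A match describes letters, and binding was not measured.

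At CD274 (9:5450194-5451000, covering the transcript start) accessibility was 8.27 CPM in JJN3 under DMSO and 29.0 under pomalidomide, and 13.2 and 26.2 in KMS11. Both pomalidomide libraries lay above both DMSO libraries. The log2 change in the model over both lines was 1.26 ± 0.28 (SE), and the adjusted p was 0.00668. The peak was at 18 and 22.8 CPM in JJN3 under GNE-781 and the combination and at 15.2 and 29.0 in KMS11, a log2 change of 0.7 that did not pass (adjusted p = 0.178). Every adjusted p given here comes from the quasi-likelihood test of edgeR, adjusted by Benjamini and Hochberg over all peaks or genes tested, unless another test is named. At CFB (6:31945499-31946114) the levels were 13.5 and 40.3 CPM in JJN3 and 4.92 and 10.9 in KMS11. The groups overlapped, since KMS11 stood lower throughout, and the log2 change within the lines' model was 1.38 ± 0.31 (adjusted p = 0.00925). PLSCR1 (3:146544042-146544976) went from 40.6 to 90.6 CPM in JJN3 and from 48.7 to 71.2 in KMS11, with no overlap of the groups (0.83 ± 0.19, adjusted p = 0.012). The peak at the HSD11B1 start (1:209685654-209686260) went from 4.51 to 13.3 CPM in JJN3 and from 9.06 to 26.4 in KMS11, again without overlap. Its log2 change was 1.5 ± 0.32 (adjusted p = 0.00495). In the table it is assigned to RP1-28O10.1, an overlapping transcript. PIPOX (17:29042529-29043531) was at 31.6 and 47.0 CPM in JJN3 and at 22 and 70.1 in KMS11 (1.25 ± 0.23, adjusted p = 0.000606), a larger rise in KMS11. Each of these 5 calls was lost when at least 1 of the 4 libraries was left out, at CD274 and CFB with any of them. The highest adjusted p ran from 0.107 at CD274 to 0.712 at PIPOX.

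Among rising peaks with a whole promoter window of 300 bases, from 250 before to 50 after a RefSeq start, 2 of 25 held the interferon-stimulated element (8%), against 2.69% of the 8488 such windows in all tested peaks. The STAT site was in 4 of 25 (16%, against 5.11%), the IKAROS site in 8 (32%, against 20.4%), RUNX in 4 (16%, against 9.05%) and the ETS site in 5 (20%, against 19.9%). NF-kB matches were in 28% against 32.1% and KLF/SP matches in 72% against 76.2%. E-box (20% against 17%), AP-1 (4% against 4.29%) and MEF2 (4% against 1.77%) matches were in few windows, and no rising window held the MAF site, present in 3.17% of all. With 25 windows these shares are descriptions, and no falling peak covered a whole window.

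More peaks were called as rises than as falls under pomalidomide, and most of them lay outside promoters. The tested peaks are a union of peak calls, and the pomalidomide library was the deeper one in both lines. The part of depth and of this choice of peaks in the excess of rises was not tested. Of 62234 peaks tested, 780 were called (1.25%), of which 638 rose (1.03%) and 142 fell (0.228%), at an adjusted p under 0.05. At an unadjusted p under 0.05, 4136 peaks were higher and 2820 lower. The median of the rises was 6.01 CPM in JJN3 and 6.47 in KMS11 under DMSO, and 16.3 and 20.8 CPM under pomalidomide. All tested peaks had a median of 9.02 and 8.8 CPM under DMSO. The median of the falls was 22.5 CPM in JJN3 and 17.6 in KMS11 under DMSO, and 9.33 and 7.18 under pomalidomide. Peaks were called by these same DMSO values, which favours low ones among rises and high ones among falls. Log2 changes of the rises ran from 0.69 to 3.89 with a median of 1.5, and those of the falls from -3.1 to -0.71 with a median of -1.28. All but 21 of the rises and 1 of the falls went the called way in both lines, which the test favours, and the exceptions were all in JJN3. Most calls rested on the KMS11 libraries: leaving out its DMSO library left 68 peaks called, 46 of them among the 780, and leaving out its pomalidomide library left 64, with 55 of the 780. Without the JJN3 DMSO library 408 of the 780 kept their call and without the JJN3 pomalidomide library 448. With counts thinned to equal depth within each line 503 peaks were called, 443 of them among the 780.

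The peaks that kept their call whichever of the 4 DMSO and pomalidomide libraries was left out numbered 15 (0.0241% of those tested), and 13 of them rose. None was nearest to a gene of the lists described further on. The peak in ITGA10, an integrin subunit that binds collagen (1:145891780-145892558), was at 15.0 CPM in JJN3 and 15.5 in KMS11 under DMSO and at 48.3 and 59.2 under pomalidomide. Its DMSO values were nearly equal in the lines and far below both pomalidomide values, and the log2 change was 1.87 ± 0.23 (adjusted p = 1.46e-06). An intergenic peak nearest to SCARB1, the receptor for high-density lipoprotein (12:124764819-124765345), was at 3.76 and 3.11 CPM under DMSO and 26.7 and 14.1 under pomalidomide, in JJN3 and KMS11. This was the largest fold among the 13, with a log2 change of 2.40 ± 0.38 (adjusted p = 8.62e-05). At RP13-616I3.1 (3:197494452-197495410), 14373 bp from BDH1, an enzyme of ketone body metabolism, the levels were 18 and 8.28 CPM under DMSO and 53.0 and 38.4 under pomalidomide. The groups did not overlap, and the log2 change was 1.91 ± 0.25 (adjusted p = 3.14e-06).

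The peak in DLGAP1, a postsynaptic scaffold gene (18:4125100-4126269), rose from 46.6 to 117 CPM in JJN3 and from 17.6 to 46.7 in KMS11. The lines differed in level, with the KMS11 pomalidomide value next to the JJN3 DMSO value, but their log2 ratios were 1.32 and 1.38, and the change was 1.37 ± 0.2 (adjusted p = 1.52e-05). In TOM1L2, an adaptor of vesicle sorting (17:17877826-17878471), the levels were 4.51 and 28.7 CPM in JJN3 and 8.54 and 23.8 in KMS11. In ATOH8, a basic helix-loop-helix transcription factor (2:85772040-85772727), they were 12.8 and 59.6 in JJN3 and 5.95 and 15.2 in KMS11, both with a log2 change of 1.79 (SE 0.31 and 0.28). CABLES1, an adaptor of cyclin-dependent kinases (18:23192096-23192836), had nearly equal DMSO levels of 18.8 CPM in JJN3 and 18.4 in KMS11, which became 62.3 and 38.8 (1.32 ± 0.22, adjusted p = 0.000229). The only promoter peak among the rises was 768 bp from an annotated start of HYAL4, of the hyaluronidase family (7:123845937-123846924). It went from 13.5 to 48.0 CPM in JJN3 and from 17.6 to 40.3 in KMS11 (1.45 ± 0.25, adjusted p = 0.000229). The other rises were nearest to CTB-138E5.1 (2.25), PPP1R10P1 (2.02), LINC01031 (1.99), MIR3925 (1.77) and CTC-455F18.1 (1.37), with the log2 changes in parentheses, none of which has a protein-coding gene's name.

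Of the 2 stable falls, one covered the start of NLGN1-AS1, antisense to the neuroligin gene NLGN1 (3:173920225-173920880). It was at 23.3 CPM in JJN3 and 29.0 in KMS11 under DMSO and at 3.67 and 11.4 under pomalidomide, with no overlap (log2 change -1.75 ± 0.3, adjusted p = 0.000338). The other, nearest to RP11-43A1.1 and 77407 bp from VGLL3 (3:86860284-86860566), went from 15.0 to 1.33 CPM in JJN3 and from 8.54 to 1.72 in KMS11. These are low levels, 4 counts in the JJN3 and 8 in the KMS11 pomalidomide library, against 20 and 33 under DMSO.

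**Figure D1:**
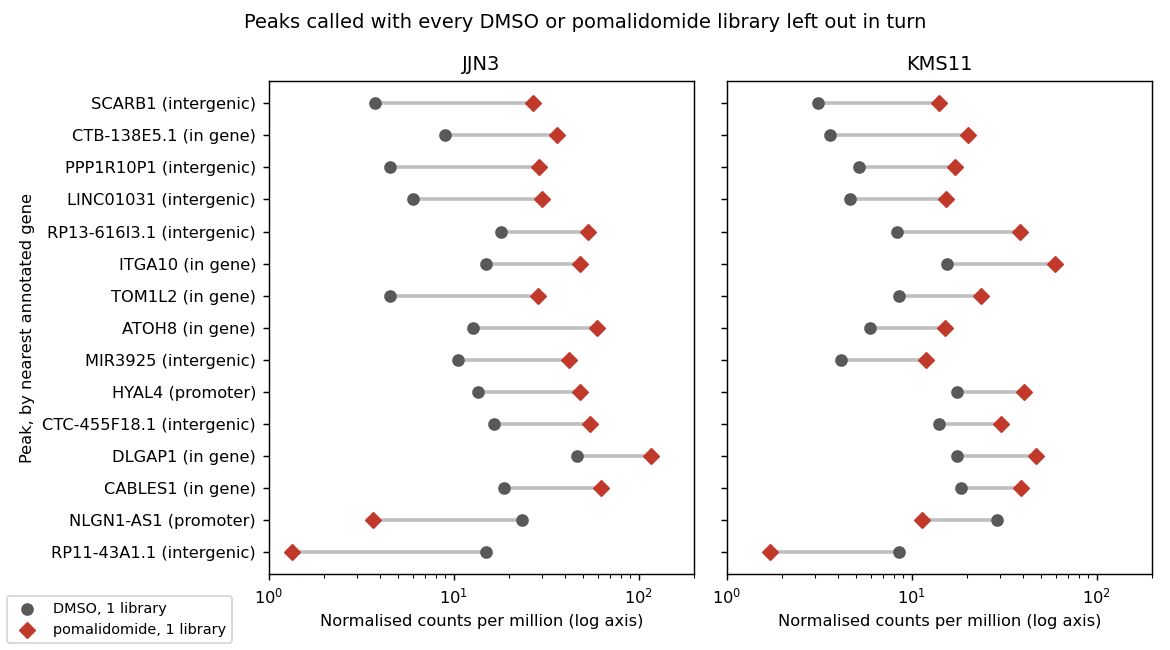
Normalised CPM (log axis) under DMSO (grey circles) and pomalidomide (red diamonds) in JJN3 and KMS11 for the 15 peaks called with each of the 4 libraries left out in turn, 1 library per point. In both lines the 13 rises shift right and the 2 falls, NLGN1-AS1 and RP11-43A1.1, shift left.

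The GNE-781 and combination libraries hold a second comparison with and without pomalidomide, in cells that all received the EP300 inhibitor. They entered the model over both lines through the line effect and the estimate of the spread, so the model's calls are not independent of them; the separate fits to 4 libraries each share no library. Of the 638 rises, 573 (89.8%) were higher in the combination than under GNE-781 in both lines and 0 were lower in both, while 26.5% of all tested peaks were higher in both. In that comparison 348 of the 638 (54.5%) were also called rises, against 1.54% of all tested peaks, and the median log2 ratio was 0.84 in JJN3 and 1.12 in KMS11. The falls held less well: 104 of 142 (73.2%) were lower in both lines, against 28.7% of all, 4 were higher in both, and 9 (6.34%) were called falls, against 0.267%. Their median log2 ratio was -0.57 in JJN3 and -0.53 in KMS11. Under GNE-781 alone the falling peaks stood at a median of 14.4 CPM in JJN3 and 9.38 in KMS11 against 22.5 and 17.6 in the DMSO libraries by which they were called, and in the combination at 9.7 and 6.23. Rising peaks were near their DMSO level under GNE-781 (7.69 and 7.11 CPM) and in the combination reached 17 and 18.3.

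The same was seen when each set of 4 libraries was fitted alone, so that the comparisons shared no library. The fit of the DMSO and pomalidomide libraries called 1099 peaks (1.77%) and that of the GNE-781 and combination libraries 1125 (1.81%), each with 1 residual degree of freedom. The lists shared 412 peaks, 37.5% of the first and 36.6% of the second, of which 402 rose in both and 10 fell in both, and none went opposite ways. All 13 stable rises were called in the combination against GNE-781. SCARB1 had a log2 change there of 3.51, RP13-616I3.1 of 2.02 and ITGA10 of 1.48. Of the stable falls NLGN1-AS1 was called there (-1.05, adjusted p = 0.0345), and RP11-43A1.1 had a log2 change of -0.82 that did not pass (adjusted p = 0.427). The pomalidomide-containing library was the deeper one in all 4 pairs, here by 1.3 times in JJN3 and 1.82 times in KMS11, and the part of depth in this sharing was not tested.

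**Figure D2:**
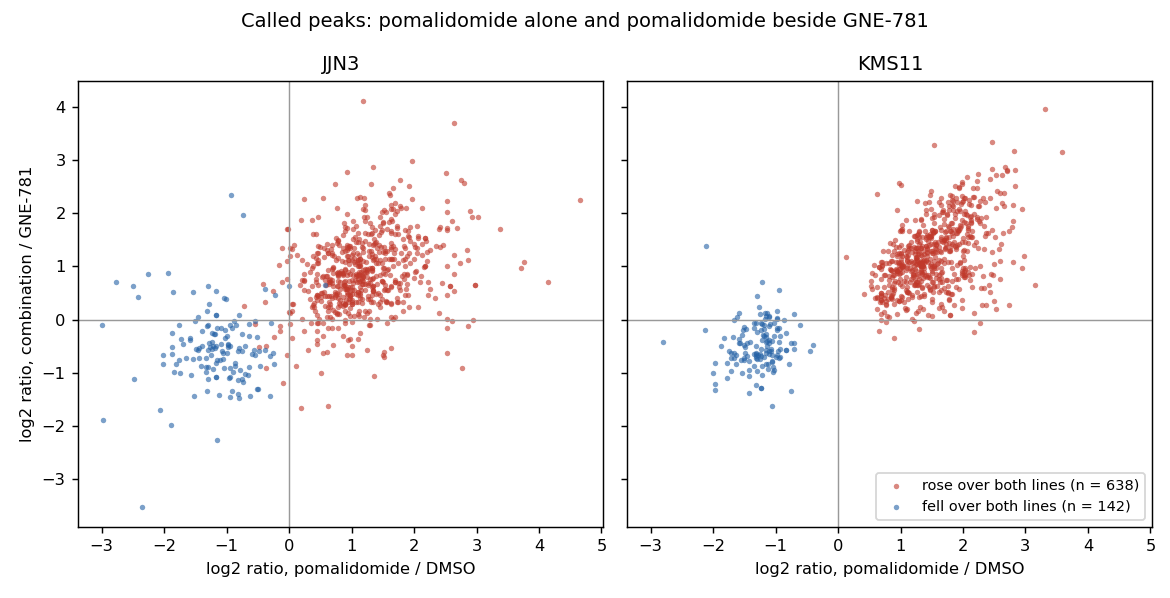
Each point is a peak called over both lines, red for the 638 rises and blue for the 142 falls, with the log2 ratio of pomalidomide to DMSO on the x axis and that of the combination to GNE-781 on the y axis, in JJN3 (left) and KMS11 (right). Red points lie mostly above 0 on the y axis in both lines (573 of 638), and blue points mostly below it (104 of 142).

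By position, 0.459% of 15906 promoter peaks rose, against 1.22% of 26767 peaks in genes and 1.22% of 19561 intergenic peaks. Promoters made up 25.6% of the tested peaks but 11.4% of the rises and 3.52% of the falls. Falls were called at 0.0314% of promoters, 0.273% of peaks in genes and 0.327% of intergenic peaks. The gap was also there among peaks of similar level, at 8 to 20 CPM, where 0.532% of promoters, 1.53% of peaks in genes and 1.57% of intergenic peaks rose. Outside the first 1000 bp the share that rose was similar at all distances, with 1.26% from 1 to 10 kb, 1.2% from 10 to 100 kb and 1.23% beyond 100 kb. Rising peaks were wide, with a median of 633 bp, against 523 bp for falls and 432 bp for all tested peaks. Among peaks at 8 to 20 CPM the share that rose went from 0.146% at up to 300 bp to 2.67% in each of the 2 widest classes, while falls were most frequent in the middle class (0.438%).

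**Figure D3:**
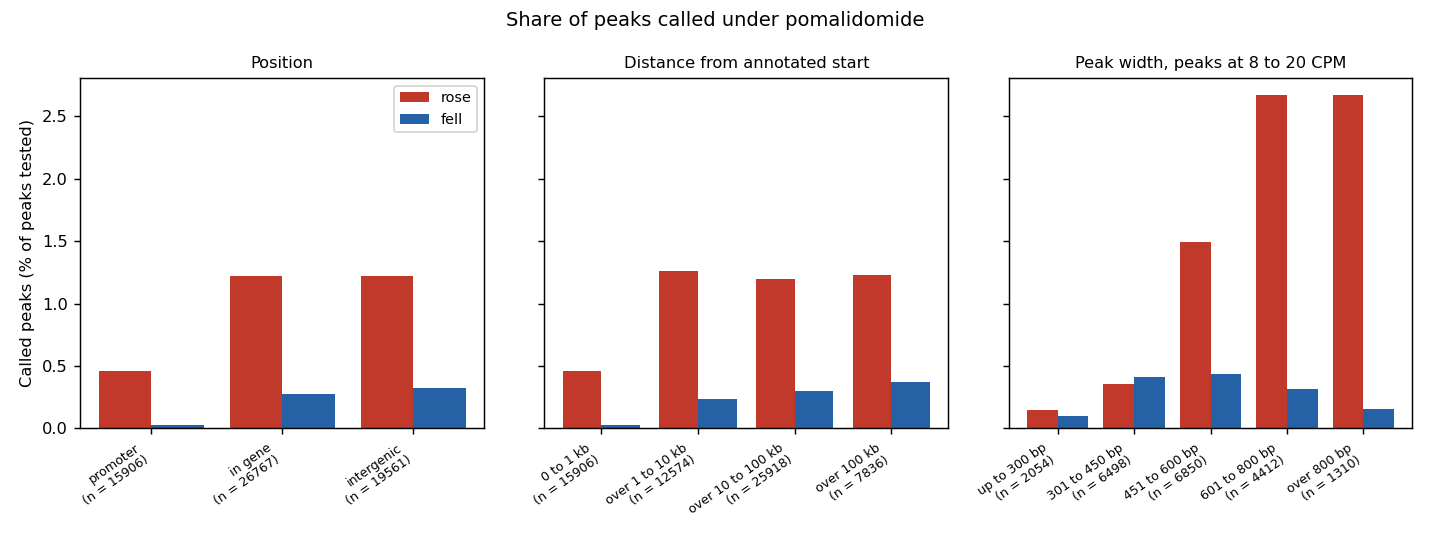
Share of tested peaks called as rises (red) and falls (blue), in percent, by position, by distance from the annotated start and, for peaks at 8 to 20 CPM, by width, with the number of peaks under each pair of bars. Among the classes of position and distance, promoters have the lowest shares in both directions (0.459% and 0.0314%), and at 8 to 20 CPM the share of rises is 0.146% of the narrowest peaks and 2.67% of the widest.

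Falls were spread unevenly over chromosomes. Chromosome 4 held 20 of the 142 falls (0.521% of its peaks) and chromosome 8 held 19 (0.578%), while chromosomes 15, 19, 20 and 22 held none. The median log2 change over all peaks was highest on chromosome 17 (0.13), 15 (0.11) and 19 (0.1) and lowest, leaving aside the 6 peaks on Y, on chromosome 4 (-0.08), 18 (-0.06) and 8 (-0.05), against 0.02 over all. In KMS11 it was -0.14 on chromosome 4 and -0.1 on chromosome 8, and in JJN3 0.04 on both. These shifts are small beside the changes of called peaks. Few called peaks were neighbours: 61 had another within 50000 bp, and in 55 of these all such neighbours moved the same way.

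The 8 rises with the lowest adjusted p, with ties broken by the unadjusted p, were all distal peaks. CTNND1 encodes p120 catenin, which holds cadherins at cell junctions, and 2 of its 3 peaks rose. The first (11:57778256-57779005) went from 3.01 to 14.3 CPM in JJN3 and from 2.33 to 28.7 in KMS11. The second, 1381 bp from a transcript start (11:57792940-57793238), went from 2.25 to 12 in JJN3 and from 1.55 to 6.86 in KMS11, with a log2 change of 2.2 ± 0.51 (adjusted p = 0.011). In the combination the first was at 34.4 CPM in JJN3 and 39.4 in KMS11 and the second at 13.1 and 6.41, both above GNE-781 alone. In PPP1R14D, an inhibitor of protein phosphatase 1 (15:40815071-40815967), the levels were 5.26 and 21.7 CPM in JJN3 and 5.44 and 30.0 in KMS11 (2.3 ± 0.33, adjusted p = 1.52e-05). Here the combination exceeded GNE-781 by less, 0.86 on the log2 scale, which did not pass (adjusted p = 0.147). SYT2, a calcium sensor of vesicle release (1:202615163-202616468), had 45.8 and 90.0 CPM in JJN3 and 22.5 and 76.3 in KMS11 (1.4 ± 0.2, adjusted p = 1.52e-05). KIF25, a kinesin (6:168007371-168008096), went from 9.02 to 21.7 CPM and from 5.18 to 35.4. The intergenic peak nearest to RP11-313C4.1, 310339 bp from LRFN5 (14:42214888-42215665), went from 4.51 to 15.7 CPM and from 4.4 to 34.9. These 8 rises, which include ITGA10, RP13-616I3.1 and a peak near DDB1, all had the larger log2 ratio in KMS11. All but ITGA10 and RP13-616I3.1 lost their call when 1 or 2 of the 4 libraries were left out singly. DLGAP1 and CTB-138E5.1, which tied at an adjusted p of 1.52e-05 but ranked lower by the unadjusted p, kept theirs.

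Other promoter peaks that rose, within 1000 bp of an annotated start, were at CRY2, CTDSP2 and the clone-named transcripts RP6-91H8.3 and RP11-1L9.1. CRY2, a repressor of the circadian clock (11:45858025-45858710), went from 20.3 to 50 CPM in JJN3 and from 8.54 to 22.9 in KMS11, a like ratio in both lines (1.37 ± 0.25, adjusted p = 0.00068). A peak 185 bp from an annotated start of CTDSP2, a phosphatase (12:57828927-57829365), was at 1.5 CPM in JJN3 and 2.59 in KMS11 under DMSO. It reached 12.3 and 14.6 under pomalidomide (2.66 ± 0.45, adjusted p = 0.000221). That peak was low again under GNE-781 (1.28 and 2.26 CPM) and higher in the combination (6.3 and 12.1). The 5 peaks of CTDSP2 summed to 72.2 CPM in JJN3 and 149 in KMS11 under DMSO, and the sum changed by 0.36 ± 0.14 (adjusted p = 0.317). RP6-91H8.3 (14:71142220-71142918) rose by a log2 change of 2.08 ± 0.32 and RP11-1L9.1 (X:13376750-13377351) by 2.49 ± 0.44.

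The falls with the lowest adjusted p included several sites with low values under GNE-781 alone too. The intergenic peak nearest to PLA2G4A, cytosolic phospholipase A2 (1:187032333-187033342), was at 24.8 and 61.1 CPM under DMSO and at 8.33 and 24.7 under pomalidomide, in JJN3 and KMS11 (-1.39 ± 0.24, adjusted p = 0.000338). Under GNE-781 it was at 15.4 and 24.6 CPM and in the combination at 15.0 and 20.7. A peak 590 bp from an annotated start of GALNT5, a mucin O-glycosylation enzyme (2:157256657-157257008), was at 18.8 and 14.8 CPM under DMSO. Under pomalidomide it was at 4.67 and 3.22, below both. GNE-781 alone gave 6.41 and 4.2 CPM. A peak 472 bp from an annotated start of XRCC5, which encodes the DNA end-joining protein Ku80 (2:216113564-216113946), went from 34.6 to 11.7 CPM in JJN3. In KMS11 it went from 19.9 to 7.72 CPM, and under GNE-781 it was at 11.5 in JJN3 and 5.82 in KMS11. ZNF250, a zinc finger gene (8:144878546-144879213), went from 43.6 to 17.3 and from 16.8 to 5.15 CPM, and its log2 ratio of the combination to GNE-781 was -0.11 in JJN3 and 0.13 in KMS11. LRRC4C, a synaptic adhesion gene (11:40241290-40242015), went from 49.6 to 28.3 CPM in JJN3 and from 16.6 to 5.79 in KMS11. It was at 33.3 and 10 CPM under GNE-781 and 17.0 and 4.45 in the combination (log2 change -1.06, adjusted p = 0.0502). The other falls named were nearest to AC004915.1 (-1.42) and in RP11-501O2.5 (-1.07), and at the start of RP11-861L17.2 (-0.79). The DMSO libraries set beside GNE-781 here are those by which the falls were called. Whether GNE-781 changed any of these peaks was not tested here.

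Of the 27 genes with 2 called peaks and the 3 with 3, 7 also passed when all their peaks were summed. In NRCAM, a neuronal adhesion gene with 20 peaks, 3 rose, by log2 changes of 0.95, 1.62 and 1.98, and the sum over its peaks changed by 0.28 ± 0.12 (adjusted p = 0.388). The last of these (7:108430663-108431047) had 0 counts in JJN3 under DMSO and 15.3 CPM under pomalidomide. In RP11-15B24.5, on chromosome 9 with 11 peaks, 3 rose (1.86, 1.95 and 1.21) and the sum changed by 0.49 ± 0.14 (adjusted p = 0.116). In SYT1, the calcium sensor of synaptic vesicles, the promoter peak (12:78863584-78864832) and 1 other rose by 0.78 and 0.7, and another (12:79127329-79127633) fell, from 22.5 to 2.33 CPM in JJN3 and from 3.88 to 2.79 in KMS11.

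Summed over all peaks nearest to a gene, 128 of 25121 gene entries were called (0.51%), 93 as rises (0.37%) and 35 as falls (0.139%). Of these, 47 had 1 peak, and of the 81 with more, 67 held at least 1 called peak and 7 held 2 or more, so that most gene calls repeat a single peak. RP13-616I3.1, with 2 peaks, both called, was the clearest. Its summed level was 67.5 CPM in JJN3 and 38.4 in KMS11 under DMSO and 156 and 109 under pomalidomide, with no overlap (1.37 ± 0.16, adjusted p = 7.47e-07). With each of the 4 DMSO and pomalidomide libraries left out in turn its highest adjusted p was 0.00248. ITGA10 (1.42 ± 0.2), PPP1R14D (1.84 ± 0.26) and CTNND1 (1.83 ± 0.26) followed, each with an adjusted p of 5.17e-05. GPR182, an atypical chemokine receptor, rose from 16.9 to 42.8 CPM in JJN3 and from 9.28 to 36.4 in KMS11 (1.71 ± 0.25), and RP11-603B13.1 from 2.3 to 10.5 and from 1.8 to 16.4 (2.81 ± 0.45). Among the falls AC004915.1 went from 54.5 to 23.1 CPM in JJN3 and from 61.6 to 26.1 in KMS11, with no overlap (-1.25 ± 0.2, adjusted p = 0.000414). The sum of C1orf27 changed by -1.08 ± 0.22 (adjusted p = 0.00762), that of CTD-2010I22.2 by -0.83 ± 0.17 (adjusted p = 0.00841) and that of RPS6P7, a ribosomal protein pseudogene, by -1.39 ± 0.3 (adjusted p = 0.0128). RP11-43A1.1 and NLGN1-AS1 completed the 6 strongest falls, at -2.81 and -1.31.

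Peaks at the drug's own ligase and its substrates were mostly without a call. Each gene list is read beside the 1.25% of peaks called and the median log2 change of 0.02 over all peaks, and 0 of the list peaks described here were called by DESeq2's Wald test. Of 28 peaks at 12 genes of the cereblon ligase, 1 rose and 0 fell, and the list's median was -0.06. The rise was an intergenic peak (11:61297459-61298184) nearest to DDB1, the adaptor of the ligase. It lies 1267 bp from the RefSeq gene but 35182 bp from the annotated start. That peak went from 5.26 to 12 CPM in JJN3 and from 2.33 to 34.9 in KMS11. Over all 3 DDB1 peaks the change was 0.64 ± 0.2 (adjusted p = 0.155), and over the 3 CRBN peaks, of the drug's receptor, it was -0.45 ± 0.19 (adjusted p = 0.387). Of 51 peaks at 12 genes whose products the drug class sends to degradation, 1 rose and 0 fell (median -0.01). It lies in ZBTB16, a zinc finger repressor (11:114149709-114150291), and rose from 3.01 to 7.0 CPM in JJN3 and from 1.04 to 10.5 in KMS11. The sum over the 7 peaks of IKZF1 was 115 and 141 CPM in JJN3 under DMSO and pomalidomide and 74.3 and 64.8 in KMS11 (0.04 ± 0.15, adjusted p = 0.973). Its promoter peak at 7:50308518-50309086 went from 12 to 44.3 CPM in JJN3 and from 13.5 to 11.6 in KMS11. In the test of the difference between the lines, described below, its response was 1.62 in JJN3 and -0.11 in KMS11 (adjusted p = 0.0389), with an adjusted p of up to 0.6 when single libraries were left out. The sum over the 9 peaks of IKZF3 was 83.7 and 124 CPM in JJN3 and 170 and 218 in KMS11, higher in both lines but not past the threshold (0.42 ± 0.14, adjusted p = 0.202).

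Among 232 peaks at 36 plasma cell and myeloma regulators, 2 rose and 2 fell (1.72%), with a median of 0.03. The sums over the peaks of IRF4 (0.18 ± 0.18, adjusted p = 0.838) and MYC (0.05 ± 0.15, adjusted p = 0.965), the regulators that the degraded factors help to maintain, did not pass. A peak in MEF2C, a transcription factor of the B lineage (5:88785632-88786310), went from 1.5 to 8.66 CPM in JJN3 and from 3.11 to 12 in KMS11, and one in POU2F1 from 30.1 to 40.7 and from 14 to 34.7. The peak near CCND1, cyclin D1, fell from 17.3 to 7.0 CPM in JJN3 and from 15.8 to 1.72 in KMS11, and one in DEPTOR, an mTOR inhibitor, from 6.01 to 4.0 and from 25.9 to 9.22. The peak near CCND1 was at 7.05 and 2.59 CPM under GNE-781 and 5.82 and 1.78 in the combination. These values lay below the DMSO value of their line. The DMSO libraries by which the fall was called are the only reference for this, and an effect of GNE-781 was not tested. Of 76 peaks of G1 cyclins, kinases and inhibitors, the CCND1 peak and 1 in CDK6 were called. CDK6 (7:92763563-92764190) rose mainly in KMS11, from 7.51 to 26.2 CPM, with 3.76 and 5.0 in JJN3, and its change was -0.01 without the KMS11 pomalidomide library.

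Single peaks of interferon and NF-kB genes rose, while the sums over most of these genes did not pass. Of 58 peaks at 30 interferon response genes, 2 rose and 1 fell (5.17%), and the list's median was 0.12, with 0.29 in JJN3 and 0.01 in KMS11. USP18, which switches the interferon receptor off, had 8.27 and 17.3 CPM in JJN3 and 14.5 and 36.9 in KMS11. The peak near SAMD9L, an antiviral gene, was the fall, from 21.0 to 6.66 and from 12.9 to 4.29 CPM, and GNE-781 alone gave 7.69 and 4.85. Of 99 peaks at 26 NF-kB response genes, 4 rose and 0 fell (4.04%, median 0.15), near NFKBIA and CCL2 and in TNIP1 and TNFAIP3. CCL2, a monocyte chemokine, was the only 1 of these genes to pass as a sum, from 8.44 to 13.5 CPM in JJN3 and from 16.2 to 43.9 in KMS11 (1.2 ± 0.27, adjusted p = 0.0192). NFKBIA, the inhibitor of NF-kB, changed by 0.14 ± 0.15 over its 5 peaks (adjusted p = 0.849). In the combination against GNE-781, the log2 changes of the peaks near NFKBIA and in TNFAIP3 were 0.41 and 0.52 and did not pass (adjusted p = 0.766 and 0.696). The list's members were known from an earlier reading of these data and are no independent evidence of a direction.

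Of 60 peaks of AP-1 family genes and partners 0 were called by edgeR or by DESeq2, 4 were higher and 1 lower at an unadjusted p under 0.05, and the median was 0.16. Of 92 peaks of ETS family genes 3 rose (3.26%), in ETS1, a lymphoid factor (57.1 to 98.3 CPM in JJN3 and 16.3 to 29.2 in KMS11, 0.8 ± 0.2), in ETV7 (3.76 to 13.0 and 5.69 to 16.9, 1.62 ± 0.36) and near EHF (1.5 to 3.0 and 0.776 to 7.5, 2.64 ± 0.7). ETS1 and ETV7 moved alike in both lines, and EHF mainly in KMS11. Of 98 peaks of the BCL2 family and death receptors 1 rose, near PMAIP1, a BH3-only promoter of apoptosis also called NOXA (18:59881620-59882553), from 15.8 to 31.0 CPM in JJN3 and from 17.9 to 42.0 in KMS11 (1.14 ± 0.25, adjusted p = 0.00556). The 26 peaks of BCL2 summed to 1260 and 1270 CPM in JJN3 and 401 and 341 in KMS11 (-0.11 ± 0.11). Of 84 peaks of myeloma surface genes only that at CD274 rose, and CD38 (-0.42 ± 0.19, adjusted p = 0.451) and SDC1 (-0.27 ± 0.13, adjusted p = 0.481), a therapeutic antibody target and the plasma cell marker syndecan 1, did not pass as sums.

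Lists of other lineages held a few rises and no falls, where 1.03% of all tested peaks rose and 0.228% fell. At that share of falls, lists of this size can hold none, and no result is read from it. Of 68 peaks of T and NK cell activation genes 2 rose (2.94%), assigned to TRAC and LEF1, and of 62 B cell peaks 1 (1.61%), assigned to BANK1. Of 11 myeloid peaks 1 rose (9.09%), in ITGAM, and of 43 stromal and endothelial peaks 2 (4.65%), in FN1 and KDR. The RefSeq protein-coding gene nearest to the BANK1 peak is PPP3CA, 186003 bp away, so by RefSeq that peak lies outside BANK1. LEF1 was at 3.01 and 3.0 CPM in JJN3 and rose from 7.51 to 25.3 in KMS11, BANK1 at 1.5 and 1.67 in JJN3 and from 3.62 to 17.4 in KMS11, and KDR at 4.51 and 3.33 in JJN3 and from 14.2 to 47.8 in KMS11. These 3 calls rest on KMS11. The peak assigned to TRAC, from 2.25 to 10.3 and from 3.36 to 9.86 CPM, and that in ITGAM, from 18.8 to 42.0 and from 21.5 to 34.7, rose in both lines. The former lies 57953 bp from the annotated TRAC start, and its nearest RefSeq protein-coding gene is DAD1, 225286 bp away. No promoter peak was assigned to the T cell and myeloid markers named at the start. Of the stromal markers PDGFRB and CDH5 had none, and COL1A1 went from 9.51 to 10.9 CPM in JJN3 and from 27.7 to 52.3 in KMS11, whose part in the KDR and FN1 values was not tested. Of 7 erythroid and megakaryocyte peaks 0 were called (median -0.44), with 1 lower at an unadjusted p under 0.05. Of 62 secretory pathway peaks 0 were called by edgeR (median 0), with 3 higher and 6 lower at an unadjusted p under 0.05, and of 38 cytosolic ribosomal protein peaks 0 (median 0.08), with 2 higher and 2 lower.

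**Figure D4:**
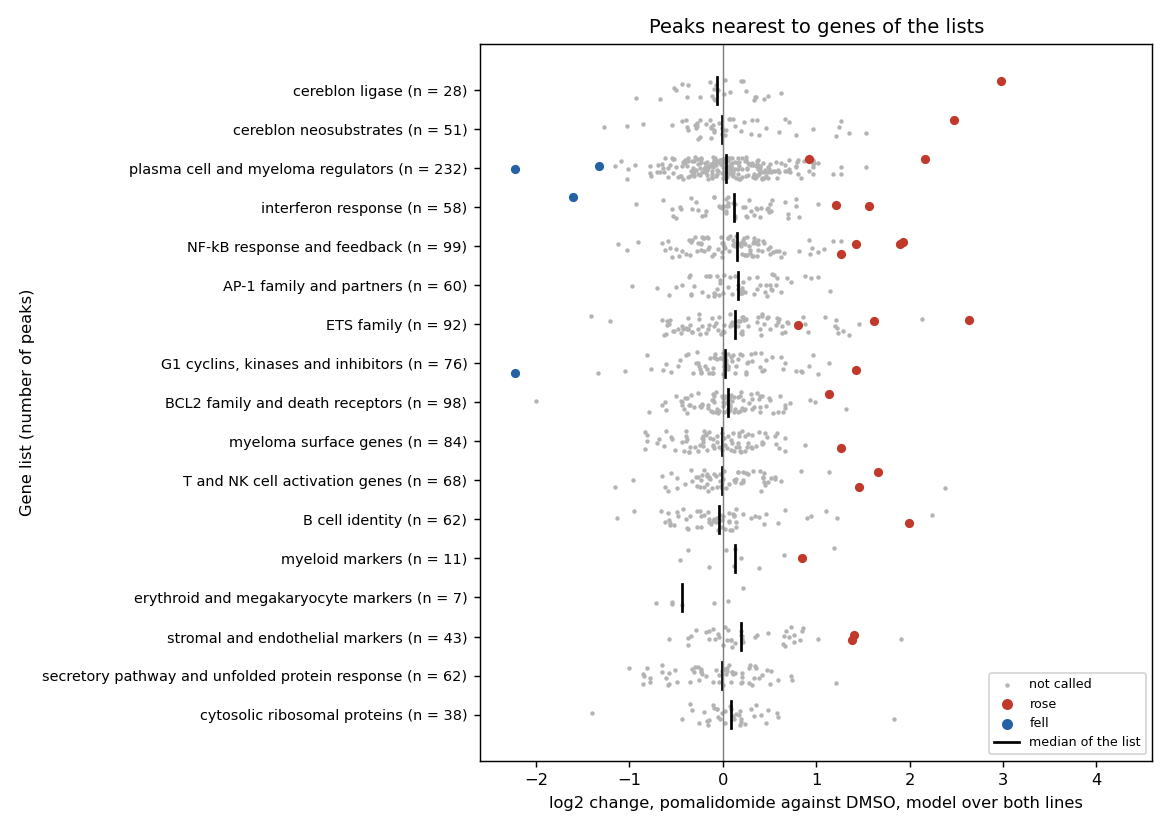
Log2 change under pomalidomide against DMSO in the model over both lines (x axis) for the peaks nearest to genes of the lists (rows, with the number of peaks), grey where not called, red for rises and blue for falls, with the list median as a black bar. Called peaks are few in every list, and medians lie close to 0 except for the 7 erythroid peaks at -0.44.

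The lines differed in their response at few peaks. With both pomalidomide libraries of a line in 1 group and the drugs adding on the log2 scale, 42 peaks (0.0675%) were called as differing, 30 with the higher response in KMS11 and 12 in JJN3. At 38 of them the fitted responses of the lines had opposite signs, which a test of the difference favours. Some were near 0 in 1 line, as at IKZF1 (-0.11 in KMS11) and TBC1D22A (0.09 in KMS11), so the sign does not show a change there. Of the 42, 5 were also called over both lines. In NPR3, a natriuretic peptide receptor (5:32785432-32786242), the response was -0.44 in JJN3 and 2.2 in KMS11 (difference 2.64 ± 0.46, adjusted p = 0.00351). In F13A1, a clotting factor subunit (6:6218412-6219017), it was 1.82 in JJN3 and -0.81 in KMS11 (difference -2.63 ± 0.51, adjusted p = 0.0109). None of the 42 calls held when each of the 8 libraries was left out in turn, and leaving out either the JJN3 DMSO or the JJN3 pomalidomide library left 1 peak called.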

How the data were processed

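The authors deposited unnormalised counts, whole numbers per library, for a set of GRCh38 peaks that the table's name gives as the union of MACS2 calls (q 0.01), each with its nearest transcript. Upstream, per the submitters' processing notes, stood MACS2 2.1.1.20160309, Bowtie2 2.3.5.1, Trim Galore 0.6.4 with cutadapt 2.5, SAMtools 1.10 and R 4.1.2. The handling of duplicates, mitochondrial reads and the transposase offset was not given in the sources used.

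A mean CPM of at least 2 was required, which 62234 peaks met and 294 did not. With TMM scaling, counts were tested in R 4.3.3 with edgeR 4.0.16, two-sided, with Benjamini-Hochberg adjustment over all peaks and calls at an adjusted p under 0.05. The model held line and treatment over all 8 libraries, the line being the block, with 3 residual and 62.8 prior degrees of freedom. Same-numbered libraries are the same cell line, which is the pairing. The spread behind the p-values is the disagreement of the lines, pooled over treatments and, by the prior degrees of freedom, mostly shared over peaks. A low p-value therefore does not show that the lines agreed at that peak. KDR, for example, was called with log2 ratios of -0.37 in JJN3 and 1.7 in KMS11. With 1 library per line and treatment, and no separate cultures named in the labels, variation between cultures of a line was not measured. How much of the spread is technical cannot be told. Within-line log2 ratios, with a prior count of 2, have no test. The difference between the lines was tested with the drugs adding on the log2 scale, with 2 residual degrees of freedom. The same test was run on counts summed per gene, and the procedure was tested on simulated counts. DESeq2 1.42.0 was an alternative, beside other scalings, filters and left-out libraries.

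A peak within 1000 bp of an annotated start is a promoter peak, and that start can differ from the start of the gene in RefSeq. A distal peak carries the name of the nearest annotated gene, and its regulation of that gene was not measured. Peaks named are the 8 rises and 8 falls of lowest adjusted p with 1 sign in both lines, up to 6 promoter peaks each way, called peaks of the 18 gene lists, genes with 3 or more called peaks, 6 genes each way in the summed test, and peaks that kept their call without each of the 4 DMSO and pomalidomide libraries. Of 414 list genes, 339 had a tested peak, 2 of them by an older symbol. The comparison and the lists were chosen with earlier results of these data known, and the results of 1 list and 1 gene are not reported here. Sequences come from RefSeq tables of GRCh38.p14, and distal peaks were not read for sequence.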

Additional observations from a re-analysis of the deposited data

Results flagged for a closer look

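A test of the difference between the lines called 42 peaks whose response to pomalidomide differed between JJN3 and KMS11. The 5 of these that were also called over both lines all had the higher response in KMS11. In TMEM178B (7:141398144-141398730) the response in KMS11 exceeded that in JJN3 by a log2 difference of 2.86 (SE 0.6, adjusted p = 0.0265 by edgeR's quasi-likelihood test): levels were 6.76 and 4.67 CPM in JJN3 under DMSO and pomalidomide and 4.66 and 32.4 in KMS11. In KALRN (3:124567111-124567799), the difference was 2.2 (SE 0.47, adjusted p = 0.0293 by the same edgeR test), with 12 and 8.0 CPM in JJN3 and 5.95 and 36.0 in KMS11. At the peak nearest to DDB1, of the cereblon ligase, and 35182 bp from its annotated start, it was 2.55 (SE 0.55, adjusted p = 0.0293 by edgeR). That peak rose in both lines. In THEM7P it was 1.99 (SE 0.44), with 12 and 16.7 CPM in JJN3 and 6.99 and 52.5 in KMS11. Near AL590874.1 it was 1.5 (SE 0.34), with 15.0 and 25.7 CPM in JJN3 and 11.4 and 40.9 in KMS11. Each line had 1 library per treatment, and none of the 42 calls held with each of the 8 libraries left out in turn.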

How the results depend on the processing

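Every call over both lines needs the pairing by line: with no replicate block, 0 peaks and 0 genes were called by edgeR, with 738 peaks and 168 genes at an unadjusted p under 0.05. From 780 peaks, the count became 501 with scaling factors from promoter peaks, 503 with counts thinned to equal depth within a line, 3864 with the drugs taken to add, and 72 with DESeq2's Wald test, where 2556 peaks had an unadjusted p under 0.05 and 204 of the 780 had no adjusted p. Leaving out single libraries gave 64 to 1074 peaks. From 128 genes it became 77 with factors from promoter peaks, 220 with the DMSO and pomalidomide libraries only, 1109 with the drugs taken to add, 18 with DESeq2, 65 with promoter peaks only, and 6 to 211 with single libraries left out. From 42 peaks that differed between the lines it became 5 with a loess offset, 2 with thinned counts, 0 with DESeq2 (723 at an unadjusted p under 0.05), and 1 to 52 with single libraries left out. With single libraries left out the log2 change ran from -0.12 to 1.69 at the KDR peak and from -0.01 to 1.92 at the CDK6 peak, the lowest being without the KMS11 pomalidomide library. The share of rises was 81.8%, and 70.4% without the JJN3 DMSO library, 93.3% without the JJN3 pomalidomide library and 94.4% with DESeq2. Of the 69 peaks named by rule, all kept their call with robust empirical Bayes and with the DMSO and pomalidomide libraries only, 62 with a loess offset, 57 with thinned counts and 24 of 55 with DESeq2, but 21 without the KMS11 DMSO library and 23 without the KMS11 pomalidomide library. The low depth of the JJN3 DMSO library limits peaks that open from few counts.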

Other observations

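Called peaks near further immune genes, chosen after their values were seen, lay in both directions. Peaks at 16:10842946-10843942 and 16:10871042-10872067, which the authors' table assigns to RP11-876N24.1 and RP11-876N24.2, rose by log2 changes of 1.18 ± 0.22 and 0.93 ± 0.25. Their nearest RefSeq protein-coding gene is CIITA, the activator of MHC class II genes. The only peak assigned to CIITA itself was at 8.44 and 6.26 CPM in JJN3 under DMSO and pomalidomide and at 4.9 and 3.57 in KMS11 (-0.42 ± 0.45, adjusted p = 0.853). The first of the rising peaks went from 32.3 to 64.0 CPM in JJN3 and from 15.8 to 40.3 in KMS11. A peak 16720 bp from CCR7, a chemokine receptor of lymphocyte homing (17:40582192-40583036), went from 3.01 to 12.3 CPM in JJN3 and from 14.5 to 37.7 in KMS11. The promoter of MME, which encodes the surface peptidase CD10, rose from 35.3 to 75.6 CPM in JJN3 and from 23.6 to 38.2 in KMS11 (0.87 ± 0.2). A peak in IRAK2, a kinase of interleukin 1 and Toll-like receptor signalling (3:10223732-10224116), fell from 21.8 to 8.66 CPM in JJN3 and from 15.0 to 4.93 in KMS11. On chromosome 8, beyond MYC, a peak in PVT1 (8:128035062-128035558) rose from 17.3 to 44.3 CPM in JJN3 and from 6.99 to 18.4 in KMS11, and a peak nearest to RN7SKP226 (8:128221880-128222759) fell from 159 to 106 and from 25.6 to 13.7. Each of these calls was lost when at least 1 of the 4 DMSO and pomalidomide libraries was left out.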
